A study of Mus musculus with 6 samples.

Results

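The genes of glucose use in the newborn mouse lens were followed in Pax6 heterozygous and wild-type animals. The set lists 34 genes of glycolysis, glucose and lactate transport, the pentose phosphate pathway, the polyol pathway and glycogen metabolism. It was chosen by function, with earlier results of these data known. Each gene was represented by the probe set annotated to that gene alone with the highest mean log2 signal over the 6 arrays. Such a probe set was found for 29 of the 34 genes, out of 12393 genes with one. For Gapdh these were only control probe sets of the array maker, which were kept out of the main fit, so 28 genes were tested. Gpi1, Eno1, G6pdx, Akr1b3 and Sord were not analysed here, and with Akr1b3 and Sord both enzymes of the polyol pathway were missing. The arrays measured total RNA of lenses from 3 Pax6 heterozygous mice (Pax6 lacZ/+, a germline allele with lacZ inserted in Pax6, so that every cell is heterozygous) and 3 wild-type mice (NMRI background). All were newborn at postnatal day 1, and a sample joined the lenses of 1 mouse. The deposited values were signal intensities on the linear scale that the authors had normalized by RMA, which combines the probes of a probe set into 1 value.

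The mature lens has no blood supply of its own, and most of its cells are fibers that lose their nuclei and mitochondria as they mature, so the tissue lives largely on glycolysis. Glucose enters through carriers of the Slc2a family, is split to pyruvate, and leaves mostly as lactate through carriers of the Slc16a family. A side branch, the pentose phosphate pathway, makes NADPH, which keeps glutathione reduced, and glycogen stores glucose that the phosphorylases release.

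The heterozygous and wild-type means of the brightest Pax6 probe set were 998 ± 152 and 1297 ± 414 (SD, n = 3 mice each). The values overlapped (limma, unadjusted p = 0.208), and the heterozygous sample was lower in each of 3 same-numbered pairs. A fit blocked on the replicate number gave an unadjusted p of 0.0315 (limma, adjusted p = 0.509). The study also reported lower Pax6 transcripts in heterozygous lenses by quantitative RT-PCR, and less Pax6 protein in the bow region. Of the other 4 Pax6 probe sets 3 had a negative log2 difference and 1 a positive one, of 0.19. No probe set in the whole table of 22626 passed limma at an adjusted p of 0.05 (0.0%), and 450 (1.99%) had an unadjusted p under 0.05. Of 20 listed lens markers 17 were measured and 15 had a median signal above 100, while 33 probe sets of olfactory receptors, a guide to background, had sample medians of 9.65 to 11.0. In whole lenses, fewer cells of a type and less RNA per cell cannot be told apart. Samples of the 2 genotypes that carry the same replicate number in their labels deviated together (correlations of 0.645, 0.734 and 0.604), and the sources used here do not say what a number shares. Signals of different genes depend on their probes and are not compared as amounts.

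Promoter sequences are shown for the genes on which the results turn. Pygb and Pygl had the smallest p between genotypes, Slc16a3 and Ldha had wide differences between replicate numbers with the highest signal in replicate 1, and Pfkl had the highest signal in replicate 2. Slc16a3, Ldha and Pfkl were picked after their values were seen, and a link between motifs and the order of replicates was not tested. Each run holds the 250 bases before the annotated start (RefSeq, GRCm38.p6, the furthest upstream start of the gene), 5′ to 3′ on the strand of the gene. Capitals mark ACGTG and GCGTG on either strand, the core letters at which hypoxia-inducible factors bind, and where matches overlap the capitals run on.
Pygb, chr2:150786546-150786795, plus strand: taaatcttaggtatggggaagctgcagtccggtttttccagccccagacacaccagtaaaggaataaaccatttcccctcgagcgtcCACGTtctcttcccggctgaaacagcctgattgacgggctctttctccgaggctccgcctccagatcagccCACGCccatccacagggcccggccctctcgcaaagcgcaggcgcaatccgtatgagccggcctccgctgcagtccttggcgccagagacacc
Pygl, chr12:70227684-70227933, minus strand: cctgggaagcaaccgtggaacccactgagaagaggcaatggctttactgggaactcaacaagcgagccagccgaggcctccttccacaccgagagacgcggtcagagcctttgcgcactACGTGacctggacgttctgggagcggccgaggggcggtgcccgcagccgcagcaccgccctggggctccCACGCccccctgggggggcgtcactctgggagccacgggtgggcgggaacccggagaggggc
Slc16a3, chr11:120948817-120949066, plus strand: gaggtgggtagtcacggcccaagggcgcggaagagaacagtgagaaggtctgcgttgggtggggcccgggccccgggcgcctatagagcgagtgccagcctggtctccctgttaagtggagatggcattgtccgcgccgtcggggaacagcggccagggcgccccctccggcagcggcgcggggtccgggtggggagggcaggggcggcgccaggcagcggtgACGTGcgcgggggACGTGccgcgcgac
Ldha, chr7:46845554-46845803, plus strand: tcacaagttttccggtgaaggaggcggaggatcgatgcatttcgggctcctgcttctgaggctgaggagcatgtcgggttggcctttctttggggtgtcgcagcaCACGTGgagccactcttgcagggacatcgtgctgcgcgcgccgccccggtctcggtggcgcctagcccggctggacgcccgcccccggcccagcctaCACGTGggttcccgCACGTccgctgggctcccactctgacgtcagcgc
Pfkl, chr10:78009808-78010057, minus strand: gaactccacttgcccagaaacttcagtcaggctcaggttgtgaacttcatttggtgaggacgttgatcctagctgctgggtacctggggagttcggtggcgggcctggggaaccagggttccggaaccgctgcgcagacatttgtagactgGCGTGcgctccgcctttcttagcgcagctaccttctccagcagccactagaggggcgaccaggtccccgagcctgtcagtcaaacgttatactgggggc
ACGTG on either strand was present in 16.5% of all 27025 promoter windows of this length and GCGTG in 28.3%. Of 27 tested genes with a promoter entry, 12 held the first and 14 the second. Slc16a3 had 2 matches to ACGTG and Ldha 3 capital stretches, all of ACGTG with 2 of them in the palindrome CACGTG, which reads the same on both strands. Pygb and Pygl had 1 match to each motif and Pfkl 1 match to GCGTG alone. A match is a run of letters and not a measured binding site. Slc2a3 has no entry among the promoter sequences used here.

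In 2 of the 28 genes all heterozygous samples lay on 1 side of all wild-type samples, a share close to the 6.18% of all probe sets. Both are glycogen phosphorylases, and they differed in opposite directions. Pygb, the brain form, had a higher signal and Pygl, the liver form, a lower one in Pax6 heterozygous lenses. Of the other 26 tested genes none had an unadjusted p under 0.05. The differences of 24 of the 28 genes were smaller than 0.3 on the log2 scale in either direction. Over the 28 genes the median log2 difference was 0.08, against −0.01 over all probe sets, with 19 above 0 (46.5% of all probe sets were). The 95% confidence interval included 0 for 26 of 28. After adjustment for all probe sets no gene passed 0.05 (limma, adjusted p = 1.00 for every gene).

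The plot of genotype differences gives every tested gene with its interval and the difference within each numbered pair. The glycolytic enzymes and carriers spread on both sides of 0, mostly with intervals wider than the estimates. These intervals come from the unblocked fit, whose error takes in the differences between replicate numbers. At an unadjusted p under 0.05 there was 1 gene higher (all probe sets 0.977%) and 1 lower (1.01%), the same pair whose groups did not overlap. In a fit that blocked on the replicate number, 4 of 28 had an unadjusted p under 0.05 (all probe sets 9.03%), with Slc2a3 higher and Eno2 lower beside the pair of phosphorylases. None passed the adjusted threshold in that fit either (0.00884% of all probe sets did). Within the numbered pairs 10 genes were higher in 3 of 3 (13.8% of all probe sets) and 5 were lower in 3 of 3 (17.1%).

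**Figure D1:**
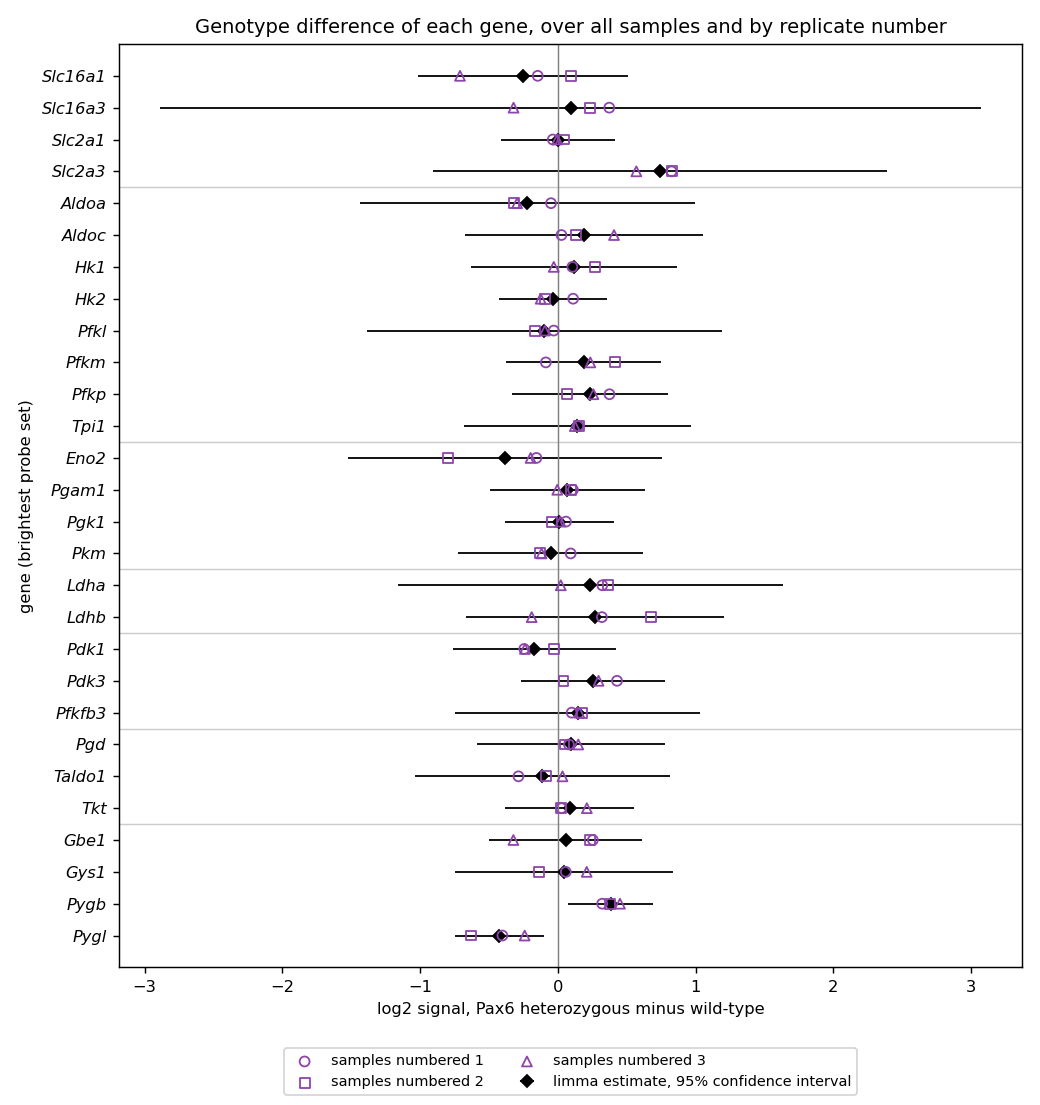
Genotype difference of the 28 tested genes, grouped by role from carriers at the top to glycogen genes at the bottom. The x axis is the log2 signal of Pax6 heterozygous minus wild-type lenses; diamonds and bars give the limma estimate with its 95% confidence interval, and open symbols the difference between samples with the same replicate number. The intervals of Pygb and Pygl alone leave out 0.

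Pygb encodes the brain form of glycogen phosphorylase, which frees glucose 1-phosphate from glycogen. It read 212, 186 and 194 in the heterozygous replicates 1 to 3 and 169, 143 and 142 in the wild-type replicates. All 3 heterozygous values lay above all 3 wild-type values, a pattern met in 2.65% of all probe sets. The means were 197 ± 13.2 and 151 ± 15.6 (SD, n = 3 mice each), in a ratio of 1.30, and the log2 difference was 0.38 ± 0.13 (standard error; limma, unadjusted p = 0.0216, adjusted p = 1.00). In the numbered pairs the log2 difference was 0.32, 0.38 and 0.45. Pygb lies on chromosome 2, as do Pax6, Pfkfb3 and Pdk1, and what this shared location means for its signal was not tested.

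Pygl encodes the liver form of the same enzyme. It read 210, 211 and 255 in heterozygous lenses and 277, 327 and 301 in wild-type lenses. No heterozygous value reached the lowest wild-type one, a pattern met in 3.53% of all probe sets. The means were 225 ± 25.8 and 302 ± 24.7 (SD, n = 3 mice each), in a ratio of 0.746, and the log2 difference was −0.43 ± 0.14 (standard error; limma, unadjusted p = 0.0179, adjusted p = 1.00). The difference was −0.40, −0.63 and −0.24 in the numbered pairs. Both phosphorylases stand in the study's list of altered transcripts, which was drawn from these same samples, so that list is no independent evidence for either. Each has a single probe set here.

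The unadjusted p exceeded 0.05 for Pygb without heterozygous replicate 1 (0.0701), wild-type replicate 2 (0.0662) or wild-type replicate 3 (0.0683), and for Pygl without heterozygous replicate 1 (0.0587), heterozygous replicate 2 (0.0562) or wild-type replicate 2 (0.0592), all with limma. With an intensity trend and a robust prior it was 0.105 for Pygb and 0.0701 for Pygl. With a block on the replicate number it was 0.00759 for Pygb and 0.0104 for Pygl (limma, adjusted p = 0.395 and 0.421). For each gene the unadjusted p stayed under 0.05 in 12 of 16 alternatives. The other 2 measured glycogen genes of the set differed little. Gys1, glycogen synthase, averaged 20.6 ± 7.55 in heterozygous and 19.9 ± 7.04 in wild-type lenses, and Gbe1, the branching enzyme, 124 ± 34.1 and 116 ± 9.98. The signals of Gys1 were low on the array, though above the olfactory receptor probe sets.

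**Figure D2:**
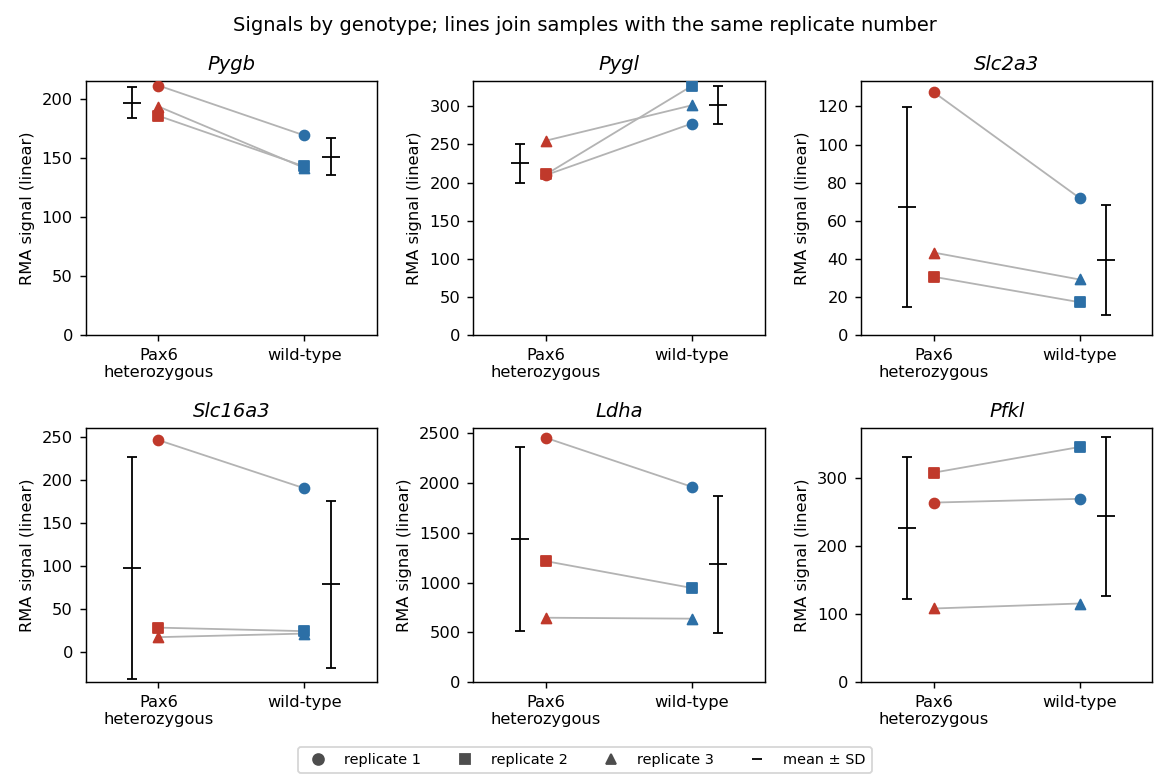
Signals (RMA, linear scale) of 6 genes in each Pax6 heterozygous sample, on the left of each panel, and each wild-type sample, on the right, with grey lines joining equal replicate numbers and black marks giving the mean ± SD of 3 mice. Genotypes are apart for Pygb and Pygl; Slc2a3, Slc16a3 and Ldha are highest in replicate 1 and Pfkl in replicate 2 in both genotypes.

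Among the carriers, Slc2a3 had the widest genotype difference, within replicates that differed from each other by more. Slc2a3 encodes GLUT3, a glucose carrier of high affinity known from neurons. It read 128, 30.6 and 43.3 in heterozygous replicates 1 to 3 and 72.0, 17.3 and 29.2 in wild-type replicates. The ranges of the genotypes overlapped, while every heterozygous value was above the wild-type value with its number. The log2 difference was 0.74 ± 0.69 (standard error; limma, unadjusted p = 0.318), which the blocked fit narrowed to a standard error of 0.11 (limma, unadjusted p = 0.000465, adjusted p = 0.245). In the pairs it was 0.82, 0.83 and 0.57. The probe set is of a kind that can match several transcripts, and the next brightest of the 4 Slc2a3 probe sets differed by 0.24. The remaining probe sets averaged 10.8 and 10.5 in heterozygous and 9.70 and 10.2 in wild-type lenses, in the range of the olfactory receptor probe sets. With all 4 averaged the difference was 0.29. For the brightest probe set alone, leaving out 1 sample moved the difference between 0.14 (without heterozygous replicate 1) and 1.30 (without wild-type replicate 1). It was 0.27 without wild-type replicate 2 and 1.17 without heterozygous replicate 2. The summed signal of 17 of 20 listed markers of retina and neurons was 2120, 2383 and 1702 in heterozygous replicates 1 to 3. In wild-type replicates 1 to 3 it was 1774, 1354 and 1503. The part of retina and neurons in the Slc2a3 signal was not tested.

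Slc2a1 encodes GLUT1, the glucose carrier of most tissues and of the lens epithelium. It stood at 10007, 7695 and 9336 in heterozygous lenses and at 10267, 7467 and 9369 in wild-type lenses. The log2 difference was 0.00 ± 0.17 (standard error), with a 95% confidence interval of −0.41 to 0.41, and the blocked fit gave a standard error of 0.10. In its other 2 probe sets the difference was 0.09 and 0.07. Of the lactate carriers, Slc16a1 (MCT1) averaged 1152 ± 416 in heterozygous and 1349 ± 384 in wild-type lenses, a log2 difference of −0.25 ± 0.32. Slc16a3 encodes MCT4, the lactate exporter of strongly glycolytic cells. Its signals were 246, 27.8 and 16.7 in heterozygous replicates 1 to 3 and 190, 23.7 and 20.9 in wild-type replicates, so that replicate 1 of either genotype stood far above the other two and the genotypes overlapped. The highest value was 14.7 times the lowest among heterozygous and 9.09 times among wild-type samples.

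Of the 8 tested enzymes of upper glycolysis, from hexokinase to triosephosphate isomerase, 5 had a difference above 0, and the range was −0.22 to 0.23. Pfkp, the platelet form of phosphofructokinase, had the smallest p among them. It read 45.2, 26.4 and 31.8 in heterozygous lenses and 34.9, 25.1 and 26.6 in wild-type lenses, a log2 difference of 0.23 ± 0.24 (standard error; limma, unadjusted p = 0.356). The values overlapped, and the pair differences were 0.37, 0.07 and 0.26. The muscle form Pfkm differed by 0.19 ± 0.23. The liver form Pfkl read 264, 308 and 108 in heterozygous lenses and 270, 346 and 116 in wild-type lenses, with replicate 3 lowest and replicate 2 highest in both. Its log2 difference was −0.10 ± 0.54, and its second probe set differed by 0.22, so the direction was not shared between probe sets. Hk2, a hexokinase that traps glucose in the cell, differed by −0.04 ± 0.16, and Hk1, at a median signal of 20.1, by 0.12 ± 0.31.

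The aldolases cleave fructose 1,6-bisphosphate. Aldoa, the muscle form, averaged 2724 ± 1235 in heterozygous and 3136 ± 1338 in wild-type lenses, and all 4 of its probe sets were below 0 (−0.22 to −0.07). Aldoc, the brain form, averaged 2016 ± 748 and 1791 ± 744, a log2 difference of 0.19 ± 0.36. Its second, dimmer probe set read 64.2, 130 and 84.2 in heterozygous and 34.9, 92.6 and 54.4 in wild-type lenses, a log2 difference of 0.67 ± 0.41 (standard error; limma, unadjusted p = 0.150, and 0.00124 with the replicate block). Both probe sets of Aldoc were higher in heterozygous lenses in 3 of 3 pairs. Tpi1, which interconverts the triose phosphates, differed by 0.14 ± 0.34, with pair differences of 0.15, 0.15 and 0.12.

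In lower glycolysis, which yields ATP, no difference exceeded its standard error in the unblocked fit. Eno2, the neuronal form of enolase, had the smallest p of the 4 tested genes of this part. It read 1869, 582 and 1389 in heterozygous lenses and 2081, 1009 and 1594 in wild-type lenses. The genotypes overlapped, and each heterozygous value was below the wild-type value of its number. The log2 difference was −0.38 ± 0.47 (standard error; limma, unadjusted p = 0.448, and 0.0464 with the replicate block). Heterozygous replicate 2 was the lowest of all 6, and without it the log2 difference was 0.11.

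Pgk1, phosphoglycerate kinase, read 6007, 4432 and 4808 in heterozygous and 5765, 4570 and 4748 in wild-type lenses, a log2 difference of 0.01 ± 0.17 with a 95% confidence interval of −0.39 to 0.41. Pgam1, phosphoglycerate mutase, differed by 0.07 ± 0.23, and Pkm, the pyruvate kinase of most tissues, by −0.05 ± 0.28. For Gapdh, often used as a reference gene, the brightest of the 3 control probe sets read 7465, 8010 and 6501 in heterozygous lenses and 7906, 8392 and 6805 in wild-type lenses. It was slightly lower in each numbered pair, and in a fit that included the control probe sets the log2 difference was −0.07 ± 0.14 (standard error; limma, unadjusted p = 0.626). The ratio of its 3′ to its 5′ control probe set, a measure of RNA integrity and of the amplification, lay between 1.54 and 1.69 in heterozygous and between 1.49 and 1.67 in wild-type samples.

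Both lactate dehydrogenase subunits, which turn pyruvate into lactate or back, had positive differences within wide spreads. Ldha, the muscle subunit, read 2453, 1215 and 648 in heterozygous lenses and 1962, 946 and 638 in wild-type lenses. The log2 difference was 0.23 ± 0.58. Ldhb, the heart subunit, read 511, 284 and 240 in heterozygous lenses and 410, 178 and 274 in wild-type lenses, a log2 difference of 0.27 ± 0.39 (standard error; limma, unadjusted p = 0.515). Values of both genes overlapped between genotypes, and the 4 probe sets of Ldhb all lay above 0 (0.15 to 0.30). The blocked fit gave standard errors of 0.11 for Ldha and 0.17 for Ldhb (limma, unadjusted p = 0.0836 and 0.174).

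Of the kinases that set the flow through the pathway, Pdk3 had the smallest p. Pdk1 and Pdk3 inhibit pyruvate dehydrogenase, and Pfkfb3 makes fructose 2,6-bisphosphate, which activates phosphofructokinase. Pdk3 read 67.2, 39.6 and 53.6 in heterozygous lenses and 49.9, 38.5 and 43.7 in wild-type lenses, a log2 difference of 0.26 ± 0.22 (standard error; limma, unadjusted p = 0.281). Heterozygous replicate 2 overlapped with the wild-type samples. Pdk1 differed by −0.17 ± 0.25 and Pfkfb3 by 0.14 ± 0.37.

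The differences of the 3 tested genes of the pentose phosphate pathway ran from −0.11 to 0.09. Tkt, transketolase, read 4624, 5304 and 3992 in heterozygous and 4542, 5219 and 3449 in wild-type lenses, a log2 difference of 0.09 ± 0.19 (standard error; limma, unadjusted p = 0.671). Pgd, which forms NADPH in the oxidative branch, differed by 0.09 ± 0.28, and Taldo1, transaldolase, by −0.11 ± 0.39. The 4 probe sets of Pgd did not share a direction (−0.24 to 0.19).

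The signals of the set followed the replicate number far more than the genotype. Chosen after the values were seen, an F test of the replicate number in the fit with genotype (limma, adjusted over all probe sets) called 18 of the 28 genes at an adjusted p of 0.05, against 19.4% of all probe sets and 34.0% of those with a median signal above 100. Among the 21 genes of the set above that signal, 13 were called. Of the sum of squares of log2 signals over the 6 samples, a median of 93.7% lay between replicate numbers and 2.67% between genotypes. With 3 replicate numbers against 2 genotypes, the first share is expected to be the larger even where neither has an effect. The medians over all probe sets were 64.6% and 7.68%, and over those above a signal of 100 they were 83.1% and 4.96%. Pygb and Pygl were the 2 genes of 28 with the larger share between genotypes (78.7% and 77.4%), as were 3687 of all 22626 probe sets. Neither was called by the F test, with adjusted p = 0.379 for Pygb and 0.578 for Pygl (limma).

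**Figure D3:**
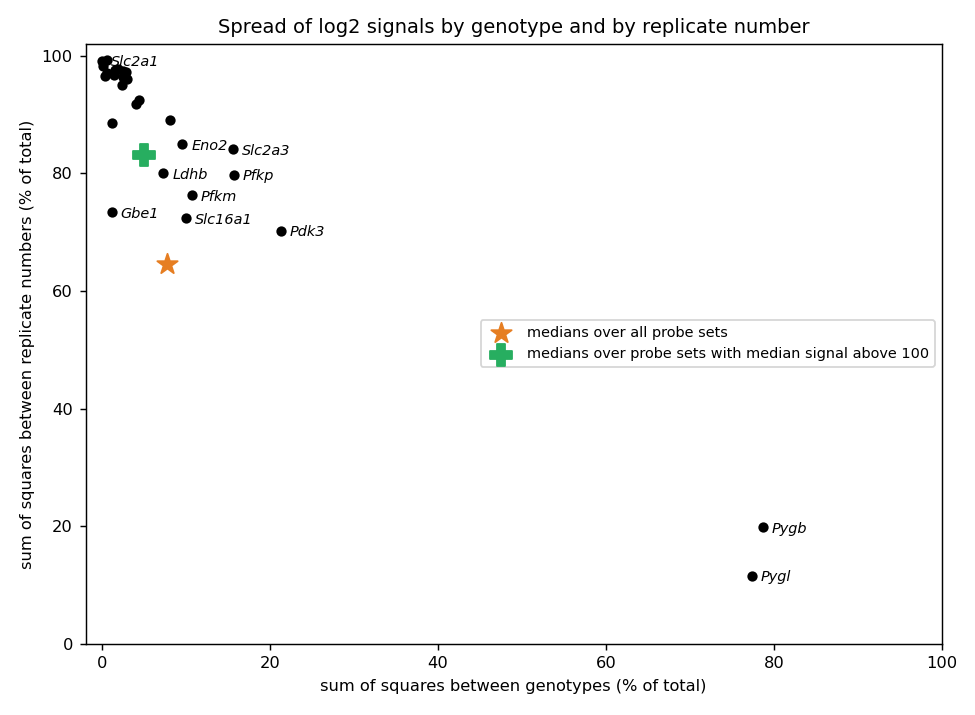
Share of the total sum of squares of log2 signals that lies between genotypes (x axis, %) and between replicate numbers (y axis, %) for each of the 28 genes (black points), with the medians over all probe sets (star) and over probe sets with a median signal above 100 (plus). Pygb and Pygl lie at the lower right and the other 26 genes at the upper left.

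Replicate 1 had the highest signal in both genotypes for 19 of 28 genes, against 16.6% of all probe sets and 16.7% of those with a median signal above 100. This group took in all 4 carriers, both lactate dehydrogenase subunits, the 3 regulatory kinases, Hk1, Hk2, Pgk1, Pgam1 and Eno2. The rest of the group were Pfkp, Tpi1, Pgd, Gys1 and Pygb. The replicate means of Slc16a3 spanned 3.53 on the log2 scale, those of Slc2a3 2.06 and those of Ldha 1.77 (limma F test of the replicate number, adjusted p = 0.00678, 0.00695 and 0.00705). Replicate 2 was highest in both genotypes for 6 genes (21.1% of all probe sets), namely Pfkl, Aldoc, Pkm, Taldo1, Tkt and Gbe1. For Pfkl the span was 1.54 and for Taldo1 1.15 (limma F test, adjusted p = 0.00705 and 0.0112). Replicate 3 was highest in both genotypes for 0 genes (19.7% of all probe sets and 29.9% of those above a signal of 100). At the low end stood replicate 2 for 10 genes (22.3% and 32.3%), replicate 3 for another 10 (14.7% and 17.1%) and replicate 1 for Pygl alone (16.3% and 21.6%).

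The genes of the pathway did not all share 1 order of the replicates. Tpi1 and Pgk1 were highest in replicate 1, and Pkm, which acts further down, was highest in replicate 2. The widths also differed, as the highest Slc2a1 signal was 1.30 times the lowest in heterozygous and 1.37 times in wild-type lenses, against 3.79 and 3.07 times for Ldha. In the plot of signals by sample, symbols of 1 shape lie together for most genes, whichever their colour.

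**Figure D4:**
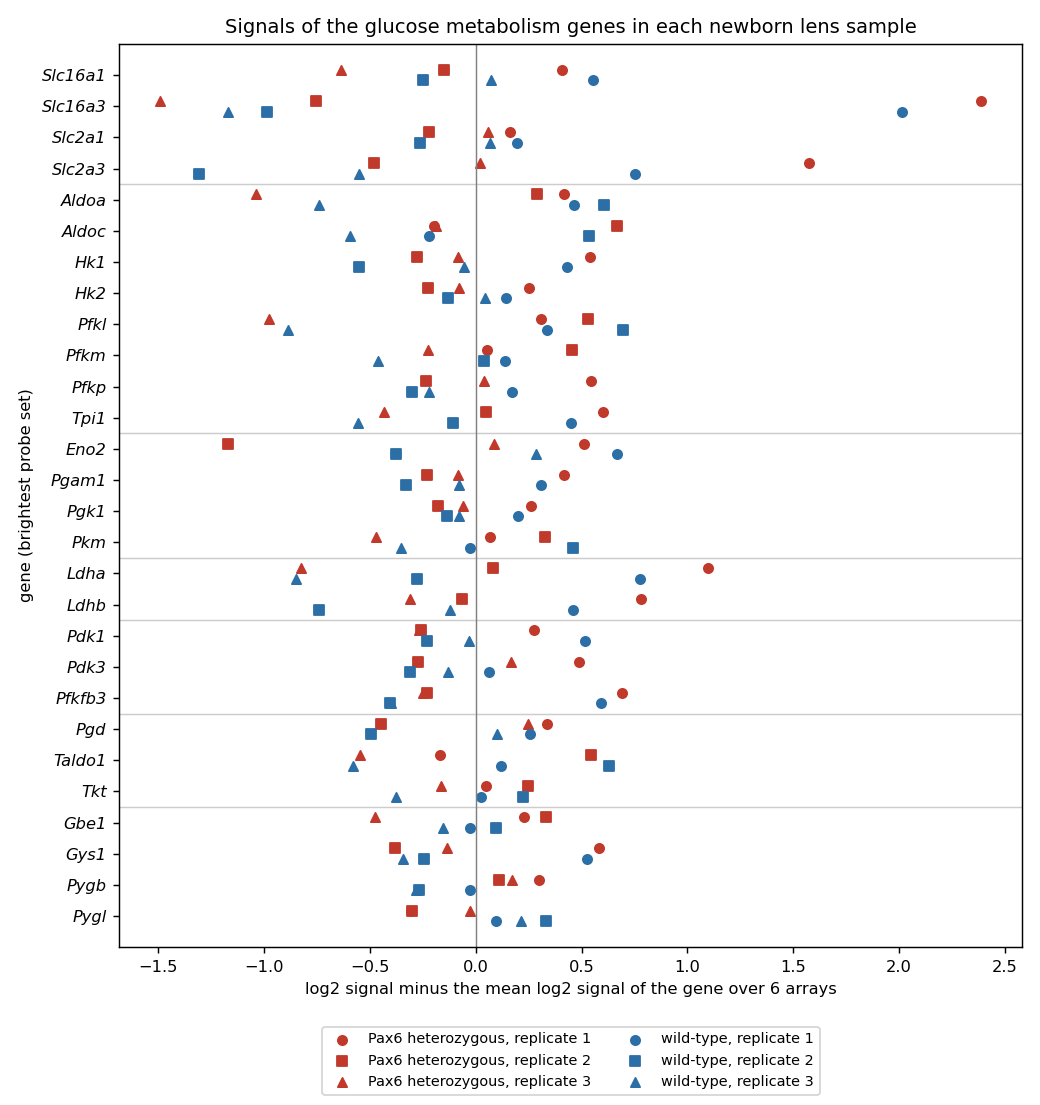
Log2 signal of each tested gene in the 3 Pax6 heterozygous samples (red, upper row of each gene) and the 3 wild-type samples (blue, lower row), relative to the gene's own mean over the 6 arrays on the x axis; circles, squares and triangles are replicates 1, 2 and 3. Circles lie furthest right in both genotypes for 19 of 28 genes.

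Signals of other cell types also differed by replicate number. The summed signal of 12 of 12 endothelium markers ran from 1150 to 3828 in heterozygous and from 895 to 2147 in wild-type samples, and that of 13 of 14 macrophage markers from 348 to 1937 and from 558 to 1723, in each case with replicate 1 highest. The F test of the replicate number called 10 of the 12 endothelium and 9 of the 13 macrophage markers, against 19.4% of all probe sets. It also called 5 of 8 pigment cell, 4 of 10 mesenchyme, 4 of 17 lens, 1 of 17 retina and 1 of 6 red blood cell markers. The summed signal of 17 of 20 lens markers ran from 131278 to 159193 in heterozygous and from 134937 to 163263 in wild-type samples, with replicate 1 lowest in both. For the 10 of 10 mesenchyme markers the sums were 727 to 1646 and 876 to 1453, also highest in replicate 1. Red blood cell markers (6 of 10) summed to 59.3 to 84.0 and 68.7 to 75.5, and pigment cell markers (8 of 9) to 2029 to 3321 and 2289 to 3548. Both of these sums were highest in replicate 1 of either genotype as well. Between genotypes the median log2 difference was 0.40 over the endothelium, 0.32 over the macrophage and 0.37 over the retina markers. It was −0.06 over the lens, −0.15 over the mesenchyme, −0.07 over the red blood cell and −0.07 over the pigment cell markers. Over all probe sets it was −0.01. RMA gives no value of 0, so none of these markers was listed at 0. The part of these cells in the levels of the glucose genes was not tested.

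Other genes of the same pathways, in 6 further lists, and a list of hypoxia genes together held 89 measured genes of 116. With limma, 0 were higher and 3 lower at an unadjusted p under 0.05 (all probe sets 0.977% and 1.01%), and none passed the adjusted threshold. With the replicate block 9 were higher and 7 lower at an unadjusted p under 0.05 (9.03% of all probe sets in either direction). Gaa, the lysosomal enzyme that breaks down glycogen, averaged 61.5 ± 6.85 in heterozygous and 81.9 ± 2.23 in wild-type lenses (SD, n = 3 mice each). The log2 difference was −0.42 ± 0.13 (standard error; limma, unadjusted p = 0.0139, adjusted p = 1.00), and its groups did not overlap. The study followed Gaa up after these arrays, so its place here is not independent evidence. That follow-up was quantitative RT-PCR on different RNA preparations, in which the study reported Gaa lower in heterozygous lenses. Slc2a8, the glucose carrier GLUT8, averaged 23.4 ± 1.08 and 29.4 ± 2.10. Slc5a1, a sodium-coupled glucose carrier, read 9.65 ± 0.645 and 11.9 ± 0.908, in the range of the olfactory receptor probe sets.

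In the list of other glycogen genes 0 of 15 were higher and 1, Gaa, lower, with a median of −0.02. Phka2, a regulatory subunit of phosphorylase kinase, which switches the phosphorylases on, averaged 23.2 ± 2.19 in heterozygous and 18.3 ± 2.78 in wild-type lenses (log2 difference 0.35 ± 0.15; limma, unadjusted p = 0.0592). Pygm, the muscle phosphorylase, differed by −0.25 ± 0.24. The list of other hexose and monocarboxylate carriers had 0 of 11 higher and 2 lower, with a median of −0.06. In the lists of other glycolysis and gluconeogenesis genes (20 measured), pyruvate dehydrogenase genes (8), pentose phosphate genes (8) and polyol and fructose genes (7) none had an unadjusted p under 0.05, with medians of −0.01, 0.04, −0.05 and −0.02. With the replicate block 3 were higher and 2 lower in the glycolysis list, 0 and 1 in the pyruvate dehydrogenase list, 2 and 0 in the pentose phosphate list and 1 and 0 in the polyol list. The smallest p values in these belonged to G6pc, at background (9.41 ± 0.596 and 11.3 ± 0.503), Dld, a subunit of pyruvate dehydrogenase (139 ± 21.3 and 171 ± 18.1), Prps2 (25.2 ± 6.10 and 20.4 ± 4.47) and Khk, ketohexokinase (26.7 ± 4.47 and 22.3 ± 3.68). Akr1a1, an aldehyde reductase related to the missing aldose reductase, averaged 3368 ± 807 and 3417 ± 892.

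Hypoxia genes outside metabolism, which share with many glycolytic genes the control by hypoxia-inducible factors, had 0 of 20 measured genes past an unadjusted p of 0.05 between genotypes (1 higher and 1 lower with the replicate block) and a median of −0.01. By replicate number 10 of the 20 were called (limma F test, adjusted p under 0.05; 19.4% of all probe sets and 34.0% of those above a signal of 100), and 11 were highest in replicate 1 of both genotypes (16.6% of all probe sets). Ddit4, an inhibitor of mTOR signaling induced by stress, read 5159, 358 and 998 in heterozygous and 2414, 409 and 635 in wild-type lenses. Egln3, a prolyl hydroxylase that targets hypoxia-inducible factors, read 204, 42.4 and 84.6 in heterozygous and 125, 33.8 and 37.4 in wild-type lenses. Both were highest in replicate 1, as were Slc16a3, Slc2a3 and Ldha. Hif1a itself read 1742, 1954 and 2853 in heterozygous and 1660, 1877 and 2240 in wild-type lenses, with replicate 1 lowest. Hmox1, heme oxygenase, read 1049, 4147 and 1727 in heterozygous and 1026, 3046 and 2490 in wild-type lenses, with replicate 2 highest. These named genes are examples from the list, and the part of hypoxia in the order of the replicates was not tested.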

How the data were processed

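Total RNA of lenses from 3 Pax6 heterozygous and 3 wild-type newborn mice was amplified, biotin labeled and hybridized to Affymetrix mouse arrays, 1 array a mouse. The authors deposited signal intensities made by RMA (background correction, normalization across arrays, summary of probes; version not given in the sources used here). An array has no count or depth, and precision is limited by 3 mice per genotype.

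The signals were taken to log2 as they stood, without a pseudocount. Of 22690 probe sets, 64 controls were left out. The genotype contrast (heterozygous minus wild-type) was fitted by lmFit and eBayes of limma 3.58.1 in R 4.3.3, with Benjamini-Hochberg adjustment over all 22626 probe sets and a threshold of 0.05. Gapdh was taken from a fit with the controls included, and the replicate number was tested in a fit with genotype; both were chosen after the values were seen. The steps were tested on simulated data. Plots came from matplotlib 3.10.9 under Python 3.11.15.

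Gene names of probe sets came from the platform annotation, updated by Entrez number to RefSeq (GRCm38.p6); 20380 have 1 gene, 691 several and 1555 none. The genes and lists were chosen with earlier results of these data known. Values in every sample are given for genes with an unadjusted p under 0.05, those of the study's list and the one with the smallest p in each role, and of each further list up to 2 genes with the smallest p are named; the further examples (Slc16a3, Slc2a1, Ldha, Pfkl, Pgk1, the second Aldoc probe set, Gapdh and the remaining named genes) were chosen after their values were seen.

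Same-numbered samples of the 2 genotypes deviated from their group means with correlations of 0.645, 0.734 and 0.604. All 3 pairs passed the bound of 0.1. Samples of different numbers correlated at −0.0751 to −0.496. Deviations cancel out within a genotype, so positive values for same numbers pull those for different numbers down, and the contrast is no separate evidence. The replicate numbers come from the labels. Main values come from the unblocked fit. The alternatives were a fit blocked on replicate number, 1 probe set per gene, averaging all of a gene's probe sets, array weights, a robust prior with an intensity trend, filters at a median signal of 50 and of 100, quantile normalization, centring on array medians, the methods' t-test, and leaving out each sample in turn.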

Additional observations from a re-analysis of the deposited data

How the results depend on the processing

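No gene of the set passed the adjusted threshold in any of the 16 alternatives in which it was tested, including the methods' t-test, under which the counts at an unadjusted p under 0.05 were 1 higher and 1 lower as before. The sign of the difference held for Pygb and Pygl under all 16, and for Slc2a3, Pfkp, Pfkm and Pdk3 under the 14 in which they were tested, since their signals were below the filters at 50 and 100. With the replicate block, 2 of all probe sets passed the adjusted threshold and 2042 had an unadjusted p under 0.05, and of the set 2 genes were higher and 2 lower at that level; at the unadjusted level the block added Slc2a3 and Eno2, and it changed no adjusted call of a gene of the set. An intensity trend with a robust prior left 0 higher and 0 lower. The count of all probe sets at that level was 125 at a median signal of at least 50, 87 at a median signal of at least 100 and 268 with 1 probe set per gene, where fewer probe sets were tested. Leaving out 1 sample gave 0 to 2 genes higher, 0 to 1 lower and 315 to 598 of all probe sets, and a median difference of the set from −0.12 (without heterozygous replicate 1) to 0.21 (without heterozygous replicate 3), so its sign was not stable. The difference of Pax6 ranged from −0.53 to −0.10.

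Differences near 0 changed sign under some settings: with median centring Pgk1 was at −0.0144 and Slc2a1 at −0.025, with array weights Slc2a1 was at −0.0161 and Slc16a3 at −0.0717, and with a gene's probe sets averaged Gys1 was at −0.00877 and Pfkl at 0.0599; the cause was not tested. Leaving out 1 sample, which leaves its same-numbered partner unmatched, changed the sign of 22 genes, whose ranges on the log2 scale were Slc16a1 (−0.52 to 0.00208), Pfkfb3 (−0.17 to 0.48), Gys1 (−0.24 to 0.32), Aldoa (−0.65 to 0.24), Pkm (−0.24 to 0.17), Pgk1 (−0.12 to 0.11), Eno2 (−0.73 to 0.11), Ldha (−0.25 to 0.71), Gbe1 (−0.0961 to 0.31), Hk2 (−0.17 to 0.0682), Pdk1 (−0.35 to 0.0459), Taldo1 (−0.43 to 0.17), Pgam1 (−0.12 to 0.24), Slc2a1 (−0.13 to 0.11), Ldhb (−0.055 to 0.57), Pgd (−0.13 to 0.34), Hk1 (−0.13 to 0.36), Tkt (−0.0793 to 0.22), Slc16a3 (−1.08 to 1.13), Pfkl (−0.56 to 0.37), Aldoc (−0.0984 to 0.50) and Tpi1 (−0.12 to 0.40).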
